A study of Rattus norvegicus with 6 samples.

Results

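Isl1, Myt1, Myt1l and St18 are transcription factors of endocrine and neuronal cells, and the chromatin around their 4 genes was compared between islets of Adult and of 10-day-old (P10) rats. All accessible sites (ACS) whose nearest gene start in the deposited annotation was that of a member gene were taken, which gave 83 of 101603 ACS and 4 of 13834 genes. Each library was an assay of transposase-accessible chromatin by sequencing (ATAC-seq), in which the transposase Tn5 inserts adapters into open DNA, and the value of an ACS is its number of Tn5 integrations. There were 3 libraries of adult male Sprague-Dawley rats (Adult replicates 4, 5 and 6) and 3 of P10 pups (replicates 1, 2 and 3). Each was made from unsorted dissociated islet cells without any treatment. The P10 libraries came from pools of a few pups, taken from 3 litters. The study raised male and female pups, and the sex of those in these pools was not known here. Islet isolation differed as well. The study digested pup pancreases by hand shaking in collagenase, and injected collagenase into the pancreatic duct of adult rats. Age, the isolation method and the use of single or pooled animals therefore differed together, possibly with sex, and cannot be told apart.

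Isl1 is a LIM homeodomain factor of all islet endocrine cell types that acts in complexes with the adaptor Ldb1 and is required for the formation and function of endocrine cells. Myt1, Myt1l and St18 form a family of zinc finger factors that recognise an AAGTT core. Myt1 promotes endocrine differentiation in the embryonic pancreas together with Neurog3, Myt1l is best known for keeping non-neuronal genes silent in neurons through Sin3 and histone deacetylase complexes, and St18, also called Myt3, is present in beta cells. The study examined chromatin during the postnatal maturation of islets, and the question addressed here is where the sites of these 4 genes were more or less accessible in Adult than in P10 islets.

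Integrations within ACS numbered 11903909, 10319487 and 7916919 in Adult replicates 4, 5 and 6. The P10 replicates 1, 2 and 3 were deeper, with 21168463, 13491534 and 18108935. The 83 ACS of the 4 genes together held between 5283 and 14220 integrations per library. Values are given as CPM, which are counts scaled to a common library size. Sums over the ACS of a gene were scaled with library sizes of their own. A sum in CPM therefore differs from the total of the CPM of its single ACS. Up or Down denotes an ACS more or less accessible in Adult at p under 0.05 and an adjusted p under 0.2 in the quasi-likelihood test of edgeR. The beta cell genes Ins1, Ins2, Iapp, Pdx1 and Nkx6-1, the alpha cell gene Gcg and the delta cell gene Sst each had an ACS at the start. The beta cell gene Slc2a2 had ACS but none at its start. No ACS was listed with the beta cell genes Mafa and G6pc2 or with the pancreatic polypeptide gene Ppy.

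Of the 83 ACS, 19 were Up, 3 were Down and 61 were not called. Over all ACS 12504 were Up, which is 12.3%, and 6738 were Down, which is 6.63%. Myt1l accounted for 14 of the 19 Up ACS, St18 for 3 and Isl1 for 2, and the Down ACS were 2 of Isl1 and 1 of Myt1. The share of Up ACS was 43.8% for Myt1l, 13.04% for St18, 8.70% for Isl1 and 0% for the 5 ACS of Myt1. Among the 3 member genes with over 20 ACS, the share of Myt1l lay farthest from that of all ACS. Among all called ACS 65.0% were Up, and this share was 49.3% with column sums in place of the scaled library sizes and 54.9% with loess offsets. Column sums put the median log2 fold change of all ACS at −0.10, against −0.01 with the scaling used. Without P10 replicate 2 the Up and Down ACS of the whole table numbered 7973 and 3285, and those of the 4 genes 9 and 1. The Down ACS numbered 4232 over the whole table without P10 replicate 3, and 1 in the 4 genes without P10 replicate 1.

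**Figure D1:**
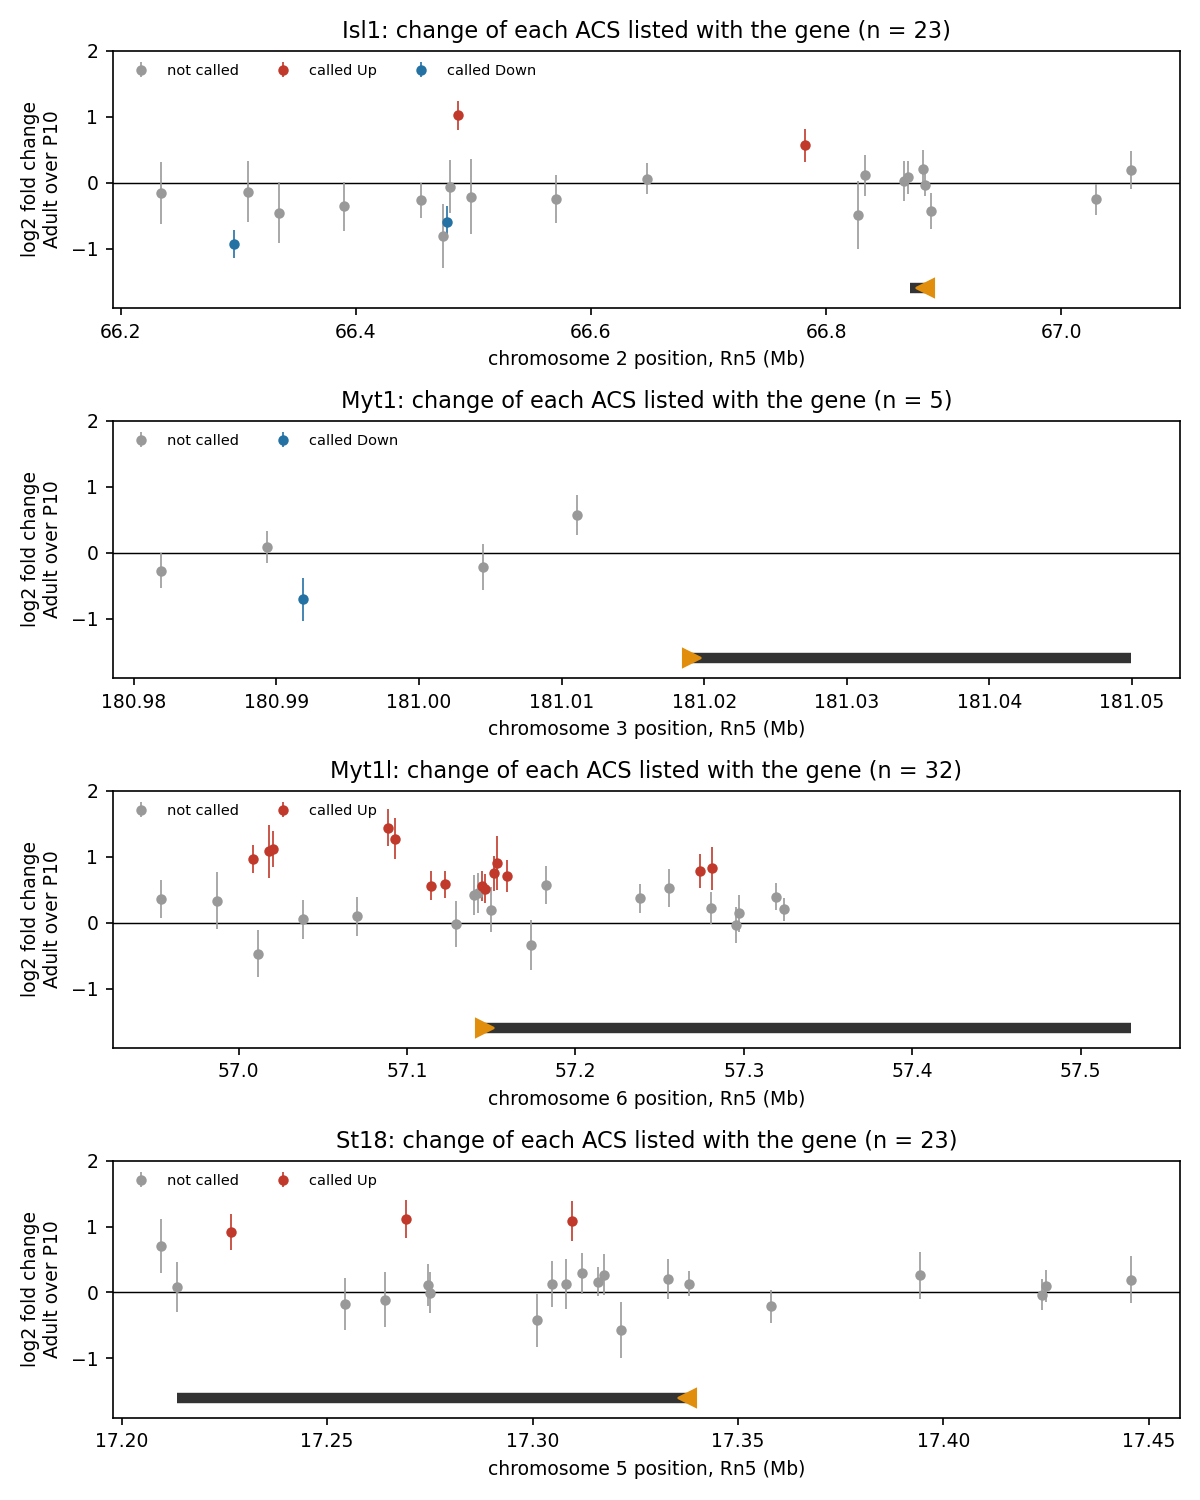
Change of every ACS listed with Isl1, Myt1, Myt1l and St18 along its chromosome (x axis, Rn5 position in Mb; y axis, log2 fold change of Adult over P10). Points are ACS with bars of 1 standard error, red and blue points were called Up and Down, the dark bar is the gene and the orange arrowhead its start and direction; 14 of 32 ACS were red for Myt1l, while Isl1 had 2 red and 2 blue.

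Myt1l (gene ID 116668) lies on the plus strand of chromosome 6 at 57146300 to 57530068 in the Rn5 build, and its 32 ACS spread over 370.4 kb from 192.6 kb upstream of the start to 177.0 kb inside the gene. Accessibility was higher in Adult over much of this region. Up ACS numbered 8 of the 16 upstream of the gene, 5 of the 15 inside it and the 1 that overlaps its start, and 0 were Down, also at an unadjusted p under 0.05 and with limma voom and DESeq2. Of the 18 uncalled ACS, 14 had a positive and 4 a negative log2 fold change, between −0.48 and 0.57. By class, 10 of the 25 DISTAL ACS were Up, beside 13.8% of all DISTAL ACS, and 3 of the 6 PROXIMAL ACS, beside 11.2% of all PROXIMAL ACS. Without P10 replicate 2 the Up ACS of Myt1l numbered 5. Of its 14 Up calls, 5 held under each alternative tried, and 3 were of ACS with a mean under 50 counts. The least stable, at chr6:57153294-57153495, kept its call under 6 of 15 alternatives.

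With the library sizes used for sums, all 32 ACS of Myt1l together had 290.1, 273.0 and 347.7 CPM in Adult replicates 4, 5 and 6. In P10 replicates 1, 2 and 3 they had 217.1, 204.9 and 228.3 CPM. Every Adult library was above every P10 library. The mean was 303.6 ± 39.2 CPM in Adult and 216.8 ± 11.7 CPM in P10 (SD, n = 3 each), a ratio of 1.40. The log2 fold change was 0.49 (SE 0.12, edgeR adjusted p = 0.0300 over the sums of all 13834 genes), in a test that called 10.5% of the genes Up and 7.69% Down. Without P10 replicate 2 the sum was no longer called (log2 fold change 0.45, edgeR adjusted p = 0.231), and the adjusted p ranged from 0.00375 to 0.231 over the alternatives. The fold change itself was smallest with loess offsets (log2 fold change 0.31, edgeR adjusted p = 0.0759).

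**Figure D2:**
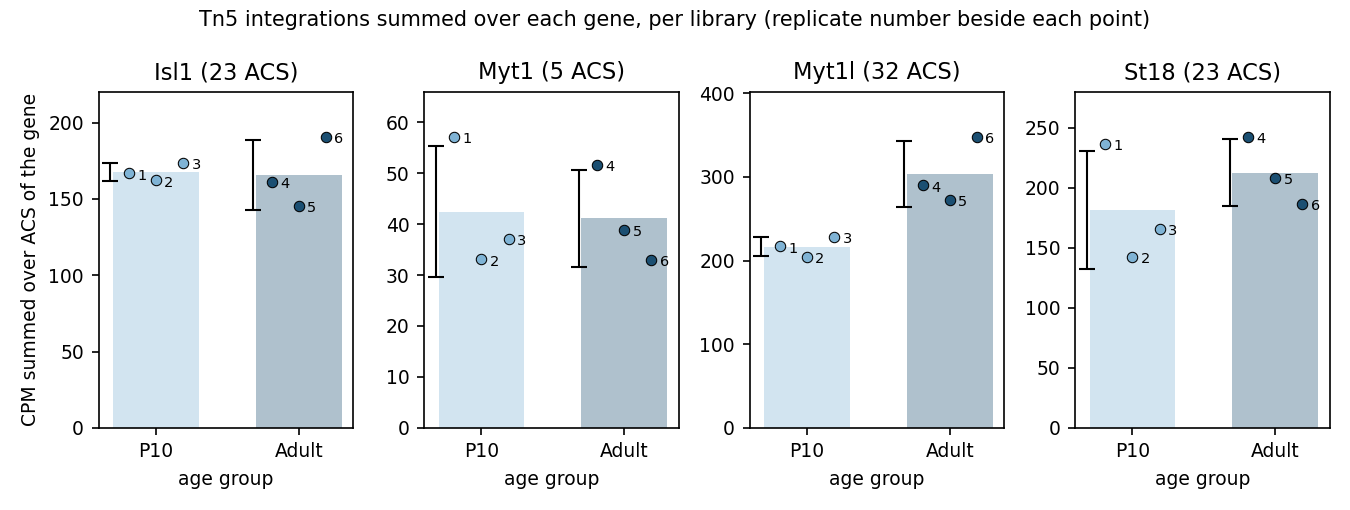
Tn5 integrations summed over all ACS of each gene in every library (x axis, age group; y axis, CPM from 0, with the library sizes used for sums). Points are libraries with their replicate numbers, bars are means and whiskers are ± 1 SD of 3 libraries; the Adult points of Myt1l lie between 273.0 and 347.7 CPM, all above the P10 points, while the groups overlap for the other genes.

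The 6 Up ACS of Myt1l with the smallest p comprised 4 upstream and 2 inside the gene. The ACS at chr6:57088676-57088963, 57.6 kb upstream, had 8.95, 6.52 and 8.77 CPM in Adult replicates 4, 5 and 6, and 2.65, 3.35 and 2.96 CPM in P10 replicates 1, 2 and 3. This was the largest fold change of the 83 ACS, with means of 8.08 ± 1.35 and 2.99 ± 0.35 CPM (SD, n = 3 each), a log2 fold change of 1.44 (SE 0.28) and an edgeR adjusted p of 0.00096. A neighbour at chr6:57092612-57092973, 53.7 kb upstream, had 4.52, 5.65 and 7.86 CPM in Adult and 2.42, 1.78 and 3.12 CPM in P10. Its libraries did not overlap between the ages, and its log2 fold change was 1.27 (SE 0.32, edgeR adjusted p = 0.00921).

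Farther upstream, the ACS at chr6:57008097-57008639, 138.2 kb from the start, had 19.2, 21.8 and 25.5 CPM in Adult and 12.3, 9.70 and 12.0001 CPM in P10. With a mean of 22.2 ± 3.16 against 11.3 ± 1.41 CPM (SD, n = 3 each) its accessibility was 1.96 times that of P10, and the log2 fold change was 0.96 (SE 0.20, edgeR adjusted p = 0.00248). At chr6:57020095-57020353, 126.2 kb upstream, the values were 6.78, 6.52 and 8.25 CPM in Adult and 3.90, 2.71 and 3.22 CPM in P10. The groups were again separate, with a log2 fold change of 1.11 (SE 0.28, edgeR adjusted p = 0.00987).

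Inside the gene, the ACS at chr6:57273910-57274134, 127.6 kb from the start, had 9.22, 8.28 and 9.15 CPM in Adult and 4.42, 5.06 and 6.03 CPM in P10 (log2 fold change 0.78, SE 0.25, edgeR adjusted p = 0.0494). The ACS at chr6:57159059-57159444, 12.8 kb from the start, had 10.3, 11.8 and 8.25 CPM in Adult and 5.21, 6.21 and 7.30 CPM in P10. Its ranges were separate as well (log2 fold change 0.70, SE 0.25, edgeR adjusted p = 0.0763), but it was not called without Adult replicate 5 (0.58, edgeR adjusted p = 0.214) or P10 replicate 2 (0.68, edgeR adjusted p = 0.225), within a range of 0.0607 to 0.225 over the alternatives. The other 5 of these ACS were Up under each alternative tried.

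Myt1l was also more accessible at its start, where the ACS at chr6:57145847-57146396 had 15.9, 12.8 and 11.9 CPM in Adult and 10.6, 9.06 and 8.72 CPM in P10. Each Adult library exceeded each P10 library, by less than at the upstream sites, and the mean was 13.5 ± 2.12 CPM in Adult and 9.48 ± 1.03 CPM in P10 (SD, n = 3 each). The log2 fold change was 0.51 (SE 0.22, edgeR adjusted p = 0.169), in the class where 2.73% of all ACS were Up. The call was lost with column sums (0.42, edgeR adjusted p = 0.244), with loess offsets (0.37, edgeR adjusted p = 0.300) and without Adult replicate 4 (0.38, edgeR adjusted p = 0.441), P10 replicate 2 (0.46, edgeR adjusted p = 0.424) or P10 replicate 3 (0.44, edgeR adjusted p = 0.392), and over the alternatives the adjusted p lay between 0.120 and 0.441. The ACS at the start held 4.79% ± 0.88 of the integrations of the gene in Adult and 4.67% ± 0.40 in P10 (SD, n = 3 each, exact two-sided permutation p = 0.8, where 3 against 3 libraries cannot go below 0.1).

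**Figure D3:**
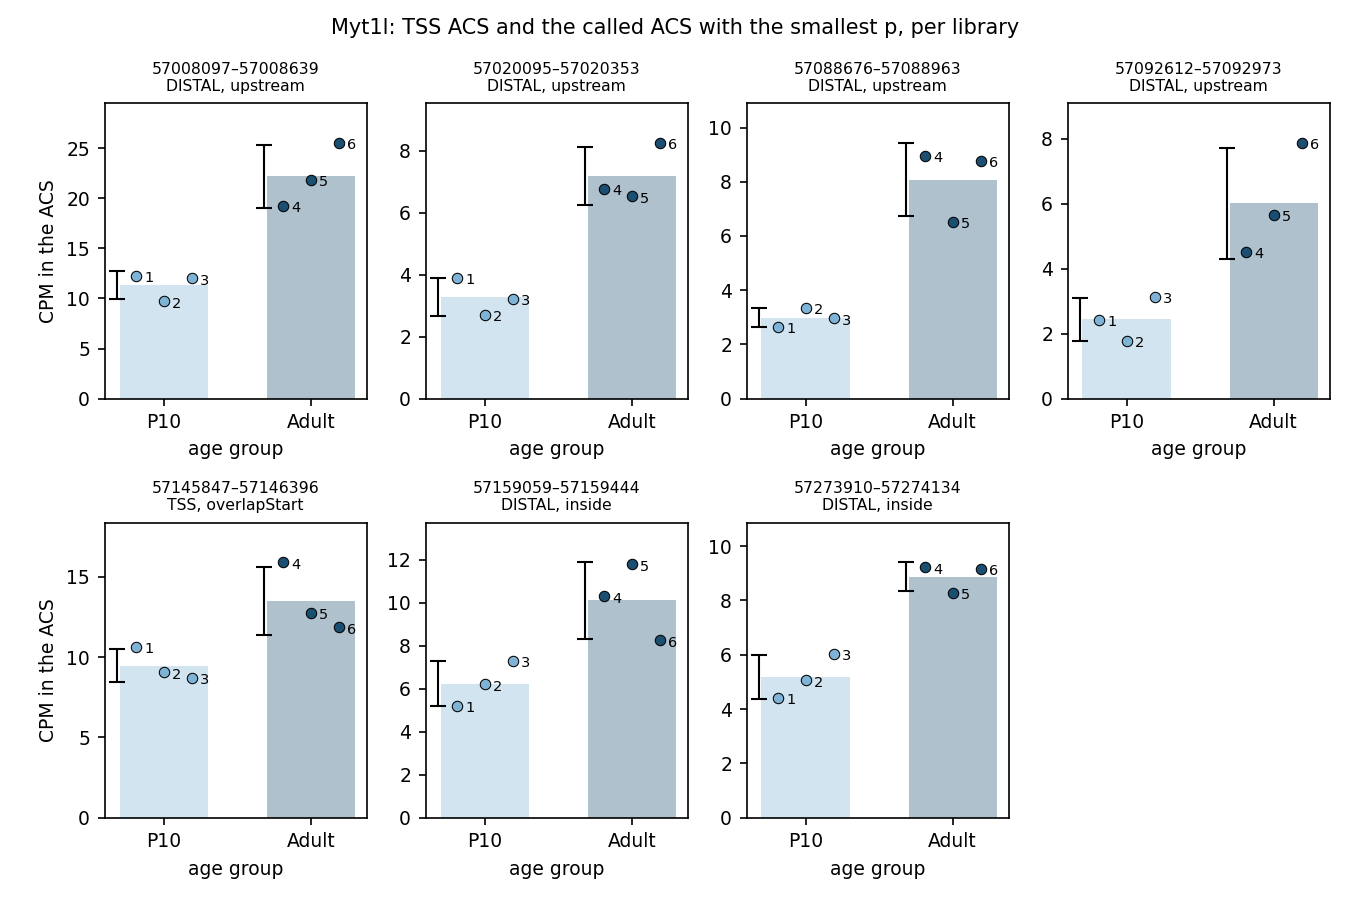
Accessibility of the Myt1l ACS at the gene start and of the 6 Up ACS with the smallest p, in every library (x axis, age group; y axis, CPM from 0; panel titles give Rn5 positions on chromosome 6). Points are libraries with their replicate numbers, bars are means and whiskers are ± 1 SD of 3 libraries; in each panel all 3 Adult points lie above all 3 P10 points, with the largest ratio at the ACS starting at 57088676 (means of 8.08 and 2.99 CPM).

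The 2 Myt1l ACS not called that had most integrations per kb lay deep inside the gene. At chr6:57319029-57319466 the values were 19.9, 15.5 and 24.1 CPM in Adult and 14.78, 15.41 and 14.96 CPM in P10, with Adult replicate 5 next to the P10 libraries (log2 fold change 0.39, SE 0.20, edgeR adjusted p = 0.275). It was Up without Adult replicate 5 (0.54, edgeR adjusted p = 0.107, the lowest over the alternatives, which reached 0.665). At chr6:57323313-57324130 the values were 36.5, 28.4 and 33.0 CPM in Adult and 30.6, 24.5 and 30.1 CPM in P10, and the groups overlapped (log2 fold change 0.20, SE 0.17, edgeR adjusted p = 0.578). In all, 14 Myt1l ACS had each Adult library above each P10 library, which held for 13.8% of all ACS, while the reverse held for 0 of its ACS and for 10.9% of all ACS.

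Since an ACS is listed with the nearest gene start, 9 ACS within the far part of the Myt1l gene were listed with the neighbouring gene Pxdn, a peroxidase of the extracellular matrix. They were looked at after the values had been seen. The ACS at chr6:57364119-57364322 was Up (log2 fold change 1.58, SE 0.30, edgeR adjusted p = 0.000837), and the other 8 were not called. With these 9 ACS added, the summed log2 fold change of Myt1l was 0.43 (edgeR adjusted p = 0.0587).

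For a view of the sequence at the starts, RefSeq promoters of the GRCr8 build, which held Isl1, Myt1 and Myt1l, were searched over 250 bases before and 50 after the annotated start. The bases before the start of Myt1l, with an Up ACS at the start, and of Myt1, with no ACS within 1 kb of it, are shown 5′ to 3′. The GRCr8 start need not be that of the Rn5 annotation. AAGTT and AAAGTTT (Myt zinc fingers), TAAT and CTAATG (homeodomain), CAGCTG and CATCTG (E-box) and TATAAA were looked for on both strands, and capitals mark the first 4 of them.
Myt1l, chr6:51898832-51899081, plus strand: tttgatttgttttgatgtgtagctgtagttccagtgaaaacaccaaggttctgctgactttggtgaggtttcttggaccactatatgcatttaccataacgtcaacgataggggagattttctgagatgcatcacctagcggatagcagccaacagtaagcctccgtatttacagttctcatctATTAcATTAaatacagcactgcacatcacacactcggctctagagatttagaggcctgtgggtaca
Myt1, chr3:189296804-189297053, plus strand: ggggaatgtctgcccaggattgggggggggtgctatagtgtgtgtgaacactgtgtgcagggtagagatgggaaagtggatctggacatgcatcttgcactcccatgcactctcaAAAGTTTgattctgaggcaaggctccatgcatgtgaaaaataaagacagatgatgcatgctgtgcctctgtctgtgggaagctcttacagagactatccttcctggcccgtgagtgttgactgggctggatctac
The Myt1l promoter held TAAT on the minus strand 66 and 61 bases before the start and no AAGTT, and TAAT was found in 60.6% of 33469 promoters searched over the same 300 bases. The Myt1 promoter held AAAGTTT, which contains AAGTT, 135 bases before the start, and CATCTG on the minus strand 89 bases before it. AAAGTTT was found in 4.76% of all promoters, AAGTT in 40.0% and CATCTG in 16.6%. In the Isl1 promoter TAAT on the minus strand, 14 bases before the start, was the only match. CTAATG was found in 8.68%, CAGCTG in 15.1% and TATAAA in 14.2% of all promoters, and in 0 of these 3.

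St18 (gene ID 266680) lies on the minus strand of chromosome 5, from 17213494 to 17337689. Its 23 ACS included 3 that were Up, each inside the gene and DISTAL, and 0 that were Down, also at an unadjusted p under 0.05 and with limma voom and DESeq2. Without Adult replicate 5, however, the ACS at chr5:17300963-17301335 was Down (−1.06, edgeR adjusted p = 0.157). At the 20 uncalled ACS the log2 fold change lay between −0.56 and 0.71, with 13 above and 7 below 0. St18 had the most accessible start of the 3 genes with an ACS there.

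The ACS at chr5:17269133-17269472, 68.6 kb inside St18, had 10.4, 6.43 and 7.99 CPM in Adult replicates 4, 5 and 6 and 4.97, 2.85 and 3.54 CPM in P10 replicates 1, 2 and 3. The Adult libraries were all above the P10 libraries, with a log2 fold change of 1.11 (SE 0.28, edgeR adjusted p = 0.0112), and the ACS was Up under each alternative tried. At chr5:17309442-17309694, 28.2 kb inside, the values were 13.4, 7.99 and 6.19 CPM in Adult and 6.14, 2.92 and 3.91 CPM in P10. Adult replicate 4 was the highest by far, and the lowest Adult value hardly exceeded that of P10 replicate 1. The log2 fold change was 1.08 (SE 0.30, edgeR adjusted p = 0.0217), and without Adult replicate 4 it was 0.70 and not called (edgeR adjusted p = 0.234, the highest over the alternatives, which began at 0.00598).

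The Up ACS of St18 at chr5:17226543-17226908, 111.1 kb inside, had 26.0, 23.7 and 13.3 CPM in Adult and 17.1, 8.99 and 7.30 CPM in P10. Here the groups overlapped, as P10 replicate 1 was above Adult replicate 6. The means were 21.0 ± 6.78 and 11.1 ± 5.22 CPM (SD, n = 3 each) and the log2 fold change 0.92 (SE 0.27, edgeR adjusted p = 0.0282). Without P10 replicate 3 the call was lost (0.67, edgeR adjusted p = 0.213), within a range from 0.00125 to 0.213 over the alternatives.

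The start of St18 at chr5:17337486-17338562 had 84.7, 55.4 and 60.5 CPM in Adult and 83.6, 45.5 and 53.7 CPM in P10. Adult replicate 4 and P10 replicate 1 stood above the other libraries, and the ages overlapped widely (log2 fold change 0.13, SE 0.19, edgeR adjusted p = 0.769). Without P10 replicate 1 the ACS was Up (0.42, edgeR adjusted p = 0.179, the lowest over the alternatives, which reached 0.967). An upstream ACS at chr5:17423885-17424226, 86.2 kb from the start, had 11.6, 8.86 and 9.02 CPM in Adult and 12.1, 9.63 and 8.46 CPM in P10, which overlapped (log2 fold change −0.03, SE 0.24, edgeR adjusted p = 0.963). The start took 33.3% ± 3.82 of the integrations of St18 in Adult and 35.5% ± 1.02 in P10 (SD, n = 3 each, exact two-sided permutation p = 0.6, with a smallest possible p of 0.1).

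Summed over its 23 ACS, with the library sizes used for sums, St18 had 242.4, 208.6 and 186.9 CPM in Adult and 236.8, 142.5 and 166.0 CPM in P10. The high value of P10 replicate 1 lay within the Adult range, above the other P10 libraries. The means were 212.6 ± 28.0 and 181.7 ± 49.1 CPM (SD, n = 3 each), and the sum was not called (log2 fold change 0.23, SE 0.15, edgeR adjusted p = 0.408). Without P10 replicate 1 it was Up (0.45, edgeR adjusted p = 0.0268, the lowest over the alternatives, which reached 0.879), and 6 of the ACS were Up in place of 3.

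Myt1 (gene ID 362291), on the plus strand of chromosome 3 from 181019141 to 181049952, was listed with 5 ACS, all of them upstream at 8.295 to 37.453 kb from the start. The ACS at chr3:180991702-180991990, 27.4 kb upstream, had 3.52, 3.51 and 1.68 CPM in Adult and 6.04, 3.78 and 4.60 CPM in P10. All Adult values were below those of P10, and it was Down at the edge of the limit (log2 fold change −0.71, SE 0.32, edgeR adjusted p = 0.199). It was not called with limma voom (−0.74, adjusted p = 0.206), with DESeq2 (−0.73, adjusted p = 0.211), with every listed entry kept (−0.71, edgeR adjusted p = 0.2001), or without Adult replicate 6 (−0.46, edgeR adjusted p = 0.527), P10 replicate 1 (−0.52, edgeR adjusted p = 0.450), P10 replicate 2 (−0.87, edgeR adjusted p = 0.203) or P10 replicate 3 (−0.76, edgeR adjusted p = 0.292), and over the alternatives the adjusted p lay between 0.116 and 0.527.

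The 4 other ACS of Myt1 were not called, with log2 fold changes between −0.27 and 0.57. The highest was that of the ACS at chr3:181010846-181011270, which was Up without Adult replicate 6 (0.79, edgeR adjusted p = 0.127) and without P10 replicate 1 (0.95, edgeR adjusted p = 0.0545). At chr3:180981688-180982186, 37.5 kb upstream, the values were 15.8, 8.96 and 8.64 CPM in Adult and 19.4, 10.7 and 10.3 CPM in P10 (log2 fold change −0.27, SE 0.26, edgeR adjusted p = 0.627). At chr3:180988988-180989704, 30.2 kb upstream, they were 17.17, 13.05 and 11.99 CPM in Adult and 18.5, 9.41 and 11.7 CPM in P10 (log2 fold change 0.09, SE 0.24, edgeR adjusted p = 0.891). As at the start of St18, Adult replicate 4 and P10 replicate 1 had the highest values of their groups at both sites. With the library sizes used for sums, the 5 ACS together had 51.6, 38.8 and 33.0 CPM in Adult and 57.1, 33.1 and 37.2 CPM in P10. The ages overlapped, with a log2 fold change of −0.04 (SE 0.19, edgeR adjusted p = 0.922). A single ACS inside Myt1, at chr3:181045376-181045861, was listed with Pcmtd2 and was not called (log2 fold change −0.07, SE 0.34, edgeR adjusted p = 0.943).

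Isl1 (gene ID 64444) lies on the minus strand of chromosome 2 from 66871790 to 66883936. Its sites were widely spread, with 18 of the 23 ACS downstream of the gene and as far as 649.5 kb from the start, and 2 (8.70%) were Up and 2 (8.70%) Down, beside 12.3% and 6.63% of all ACS. All 4 were downstream and DISTAL. At the 19 uncalled ACS the log2 fold change lay between −0.81 and 0.21, above 0 at 6 and below 0 at 13, and without Adult replicate 6 the Down ACS of Isl1 numbered 4.

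The strongest Up ACS of Isl1, at chr2:66486715-66487225 and 397.2 kb from the start, had 36.1, 18.7 and 31.7 CPM in Adult replicates 4, 5 and 6 and 15.94, 12.98 and 13.69 CPM in P10 replicates 1, 2 and 3. Adult replicate 5 was close to the P10 range and the other Adult libraries were far above it. The mean was 28.9 ± 9.07 CPM in Adult and 14.2 ± 1.55 CPM in P10 (SD, n = 3 each), a ratio of 2.03 (log2 fold change 1.02, SE 0.22, edgeR adjusted p = 0.00236). In Adult it was the most accessible ACS of the gene, with 56.5 CPM per kb against 38.4 at the start, whereas in P10 the start led with 39.2 CPM per kb against 27.8.

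The strongest Down ACS of Isl1, at chr2:66295755-66296458 and 588.2 kb from the start, had 9.67, 8.96 and 9.54 CPM in Adult and 18.5, 18.8 and 16.4 CPM in P10. Replicates were close together at both ages, and the level in P10 was 1.90 times that in Adult (log2 fold change −0.93, SE 0.21, edgeR adjusted p = 0.00434). Both of these ACS kept their call under each alternative tried. The other Down ACS was at chr2:66477428-66477828, 406.5 kb from the start. Between it and the strongest Up ACS lay the uncalled ACS at chr2:66480140-66480402 (log2 fold change −0.06). This other Down ACS had 6.42, 7.11 and 7.35 CPM in Adult and 12.5, 9.56 and 9.41 CPM in P10. Its groups did not overlap (log2 fold change −0.60, SE 0.24, edgeR adjusted p = 0.132), but the call was lost without Adult replicate 4 (−0.54, edgeR adjusted p = 0.281), P10 replicate 1 (−0.46, edgeR adjusted p = 0.302) or P10 replicate 2 (−0.67, edgeR adjusted p = 0.206), within a range of 0.0515 to 0.302 over the alternatives.

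The remaining Up ACS of Isl1, at chr2:66781864-66782354 and 102.1 kb from the start, had 7.68, 8.57 and 7.09 CPM in Adult and 5.16, 5.06 and 5.55 CPM in P10. The groups were separate (log2 fold change 0.57, SE 0.25, edgeR adjusted p = 0.184). The call was lost when any of the 6 libraries was left out (log2 fold change 0.49 to 0.63, edgeR adjusted p 0.216 to 0.428), with column sums (0.47, edgeR adjusted p = 0.263), with loess offsets (0.44, edgeR adjusted p = 0.299) and among ACS averaging 50 or more counts (0.48, edgeR adjusted p = 0.213).

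At the start of Isl1, chr2:66883933-66884743, the values were 31.9, 29.3 and 32.1 CPM in Adult and 35.9, 28.0 and 31.6 CPM in P10, with the ages overlapping (log2 fold change −0.04, SE 0.17, edgeR adjusted p = 0.944). The ACS at chr2:66888939-66889432, 5.00 kb upstream, had 5.603, 6.817 and 14.18 CPM in Adult and 12.4, 12.8 and 10.1 CPM in P10. Adult replicate 6 was the highest of all libraries there and the other Adult libraries the lowest (log2 fold change −0.43, SE 0.27, edgeR adjusted p = 0.397), and without Adult replicate 6 the ACS was Down (−0.92, edgeR adjusted p = 0.0346, the lowest over the alternatives, which reached 0.787). With the library sizes used for sums, the 23 ACS together had 161.5, 145.5 and 190.6 CPM in Adult and 166.8, 162.1 and 173.6 CPM in P10. The groups overlapped, with a log2 fold change of −0.02 (SE 0.12, edgeR adjusted p = 0.958). The start held 20.2% ± 1.63 of the integrations in Adult and 20.3% ± 1.74 in P10 (SD, n = 3 each, exact two-sided permutation p = 0.9, with a smallest possible p of 0.1).

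Levels were compared between the genes per kb of ACS. In Adult the summed level was 25.0 ± 3.29 CPM per kb for St18, 22.7 ± 2.92 for Myt1l, 18.7 ± 4.32 for Myt1 and 16.5 ± 2.27 for Isl1 (SD, n = 3), and neighbours in this order differed by less than the larger SD of the pair. In P10 the order was St18 with 21.4 ± 5.77 CPM per kb, Myt1 with 19.3 ± 5.83, Isl1 with 16.6 ± 0.57 and Myt1l with 16.2 ± 0.87 (SD, n = 3), again with neighbours closer than the larger SD of the pair. Myt1l thus stood last in P10 and behind St18 in Adult. Over the libraries of both ages the starts of St18, Isl1 and Myt1l had 59.3, 38.8 and 20.9 CPM per kb, beside a median of 24.4 CPM per kb over all ACS at gene starts. Among the 1011 genes with at least 20 ACS, 6 had a larger share of Up ACS than Myt1l, against 548 for St18 and 714 for Isl1, and the median share was 14.3%. This ranking was made once, with the calls given above, and was not repeated under the alternatives.

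The genes whose summed accessibility over the 6 libraries was most like that of a member were taken among 5709 genes with at least 5 ACS, by the Pearson r of log2 CPM. For Myt1l they were Satb1 (r = 0.998), Elovl2 (r = 0.997) and Panx1 (r = 0.996). Those of St18 were Spaca3 (r = 0.998), Atf6 (r = 0.997) and Zc3hav1 (r = 0.990), and those of Myt1 were Tbc1d7 (r = 0.997), Ap2b1 (r = 0.987) and Stx16 (r = 0.979). Akr1cl (r = 0.987), Svil (r = 0.986) and Zfp191 (r = 0.973) came closest to Isl1. As r rests on 6 libraries and the genes were picked from this many, it is given as a description.

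Other genes of these pathways were counted in 4 lists, to be held against 12.3% Up and 6.63% Down among all ACS. Factors of the endocrine lineage had 170 ACS at 10 of 14 genes, of which 15 (8.82%) were Up and 22 (12.9%) Down, with a median log2 fold change of −0.06 beside −0.01 over all ACS. Leaving out single libraries gave 7 to 20 Up and 10 to 18 Down ACS. Of the Down ACS 8 belonged to Foxa2, which also had 4 Up of 34 ACS and a sum that was not called (log2 fold change −0.11, edgeR adjusted p = 0.652) except as Down with loess offsets (−0.28, edgeR adjusted p = 0.188), and 8 to Nkx2-2, a homeodomain factor of endocrine cells with 30 ACS and 0 Up. With the other scalings, limma voom, DESeq2 or a library left out, Foxa2 had 2 to 11 Down and 1 to 5 Up ACS. The Down ACS of Nkx2-2 numbered 3 to 10 over these same fits. An adjusted p under 0.05 left 9 Up and 4 Down ACS in the whole list. The sum of Nkx2-2 was Down (log2 fold change −0.31, edgeR adjusted p = 0.132) but not without Adult replicate 4 (−0.35, edgeR adjusted p = 0.259), Adult replicate 6 (−0.26, edgeR adjusted p = 0.324), P10 replicate 2 (−0.35, edgeR adjusted p = 0.335) or P10 replicate 3 (−0.27, edgeR adjusted p = 0.263). Nkx6-1, with 3 Up and 0 Down of 20 ACS, had a sum that was Up (0.35, edgeR adjusted p = 0.0943). This call was lost with loess offsets (0.19, edgeR adjusted p = 0.392) and without Adult replicate 4 (0.32, edgeR adjusted p = 0.287), P10 replicate 2 (0.34, edgeR adjusted p = 0.361) or P10 replicate 3 (0.27, edgeR adjusted p = 0.258). The Up ACS with the smallest p were both upstream of Pax6, a factor needed for glucagon and insulin gene expression. The ACS at chr3:102302140-102302680 had 22.3 ± 2.90 CPM in Adult and 9.89 ± 1.60 CPM in P10 (SD, n = 3 each, log2 fold change 1.18, edgeR adjusted p = 0.000407), and that at chr3:102293937-102294227 had 5.33 ± 1.16 and 1.61 ± 0.44 CPM (log2 fold change 1.72, edgeR adjusted p = 0.00103). The Down ACS with the smallest p were a further site of Pax6 at chr3:102318040-102318552 (log2 fold change −0.82, edgeR adjusted p = 0.0186) and a site of Nkx2-2 at chr3:147837758-147838612 (−0.62, edgeR adjusted p = 0.0392). No ACS was listed here with Neurog3, Insm1, Mafa or Glis3.

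Partners of Isl1 in LIM complexes had 95 ACS at 8 of 9 genes, with 16 (16.8%) Up and 7 (7.37%) Down and a median log2 fold change of −0.05. When a library was left out, 11 to 16 were Up and 2 to 10 Down, and with column sums 14 were Up and 13 Down. An ACS inside Ldb2, an adaptor related to Ldb1, at chr14:71130752-71131054 had 21.9 ± 3.23 CPM in Adult and 5.40 ± 0.40 CPM in P10 (SD, n = 3 each), a ratio of 4.06 (log2 fold change 2.02, SE 0.22, edgeR adjusted p = 9.43e-07). An ACS downstream of Lmo4, a LIM-only protein, at chr2:268643056-268643860 rose from 14.2 ± 1.97 to 27.2 ± 0.91 CPM (log2 fold change 0.94, edgeR adjusted p = 0.00165). The Down ACS with the smallest p lay upstream of Ssbp3, a cofactor of Ldb1, at chr5:130322988-130323262 (log2 fold change −1.69, edgeR adjusted p = 0.0142) and inside Ldb2 at chr14:70988274-70988620 (−1.06, edgeR adjusted p = 0.0496). The latter was not called without Adult replicate 4 (−0.74, edgeR adjusted p = 0.249) or P10 replicate 2 (−0.91, edgeR adjusted p = 0.231), with a range from 0.0312 to 0.249 over the alternatives. Ldb1 itself had 3 ACS, of which 0 were called.

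Other LIM homeodomain genes had 58 ACS at 9 of 11 genes, of which 7 (12.1%) were Up and 3 (5.17%) Down, with a median log2 fold change of −0.10. Leaving out single libraries gave 4 to 7 Up and 1 to 7 Down. The Up ACS with the smallest p were those of Lmx1a at chr13:90880038-90880576 (log2 fold change 1.18, edgeR adjusted p = 0.00340) and of Lhx8 at chr2:279184516-279184717 (1.57, edgeR adjusted p = 0.00890). Down were an ACS of Lhx2 at chr3:27894581-27894932 (−0.91, edgeR adjusted p = 0.0537) and of Lhx5 at chr12:43726820-43727393 (−0.85, edgeR adjusted p = 0.0719). The first was lost without P10 replicate 3 (−0.80, edgeR adjusted p = 0.210, the highest over the alternatives, which began at 0.0304), and the second without Adult replicate 6 (−0.70, edgeR adjusted p = 0.217) or P10 replicate 1 (−0.47, edgeR adjusted p = 0.392), in a range from 0.0453. The sum over the 4 ACS of Lhx5 was Down (log2 fold change −0.83, edgeR adjusted p = 0.0442) and stayed so under each alternative (adjusted p 0.0154 to 0.176). The only ACS of Isl2, the closest relative of Isl1, had a sum that was Up (0.97, edgeR adjusted p = 0.103), but not without Adult replicate 4 (0.75, edgeR adjusted p = 0.329), Adult replicate 6 (0.92, edgeR adjusted p = 0.251), P10 replicate 2 (1.11, edgeR adjusted p = 0.209) or P10 replicate 3 (0.79, edgeR adjusted p = 0.241). DESeq2 gave it no adjusted p (0.98) and hence no call.

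Corepressor partners of the Myt factors had 27 ACS at 5 of 6 genes, with 3 (11.1%) Up and 1 (3.70%) Down and a median log2 fold change of −0.09. When a library was left out, 1 to 4 were Up and 0 to 1 Down. All 4 belonged to the histone deacetylase gene Hdac2, while Sin3a, Sin3b, Hdac1 and Kdm1a had no ACS called. The ACS at chr20:44929439-44930006 had 40.7 ± 4.46 CPM in Adult and 26.0 ± 1.39 CPM in P10 (SD, n = 3 each, log2 fold change 0.64, edgeR adjusted p = 0.0131). The ACS at chr20:45281322-45281974 was Up (0.55, edgeR adjusted p = 0.0391) but not without P10 replicate 2 (0.48, edgeR adjusted p = 0.217, the highest over the alternatives, which began at 0.00873). The Down ACS at chr20:45081614-45082130 (−0.91, edgeR adjusted p = 0.0748) was lost without Adult replicate 5 (−0.71, edgeR adjusted p = 0.218) or P10 replicate 3 (−0.77, edgeR adjusted p = 0.272), in a range from 0.0395. The sum of Hdac2 was Up (0.34, edgeR adjusted p = 0.107), but not with loess offsets (0.20, edgeR adjusted p = 0.255) or without Adult replicate 4 (0.35, edgeR adjusted p = 0.247), Adult replicate 6 (0.25, edgeR adjusted p = 0.337) or P10 replicate 2 (0.33, edgeR adjusted p = 0.378). Over the 4 lists 41 ACS were Up and 33 Down, and 49 were Down with column sums. Without P10 replicate 2 the Up and Down ACS numbered 26 and 18, and the Down ACS numbered 13 without P10 replicate 3 and 20 without Adult replicate 6.

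The summed markers of some cell types were also more accessible in Adult, in the same direction as Myt1l, and in unsorted islets more cells of a type and a higher accessibility per cell cannot be told apart. Alpha cell markers had ACS at 5 of 5 genes, led by Irx2, of which 22 of 103 (21.4%) were Up and 3 (2.91%) Down, beside 12.3% and 6.63% of all ACS. Their summed level was 986.6, 858.3 and 968.2 CPM in Adult and 768.0, 696.4 and 790.2 CPM in P10, with separate groups and a ratio of 1.25. Endothelial markers had ACS at 6 of 6 genes, led by Cdh5, with 10 of 58 (17.2%) Up and 2 (3.45%) Down, and summed to 541.8, 464.9 and 520.3 CPM in Adult and 441.5, 405.1 and 407.3 CPM in P10, a ratio of 1.22. Of these genes only Kdr had an ACS at the start.

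Duct markers, led by Sox9, had ACS at 4 of 5 genes, with 4 of 38 (10.5%) Up and 5 (13.2%) Down, and summed to 275.3, 244.2 and 277.4 CPM in Adult and 212.4, 217.6 and 236.1 CPM in P10. Acinar markers, led by Ptf1a, had ACS at 6 of 8 genes, all but Cela1 and Cel, with 4 of 52 (7.69%) Up and 4 (7.69%) Down, and summed to 391.8, 363.2 and 384.8 CPM in Adult and 360.7, 343.4 and 338.1 CPM in P10. Both sums were above P10 in every Adult library, with ratios of 1.20 and 1.09. The Up shares of both lists were nevertheless below that of all ACS and the Down shares above it. The part of these cell types in the change of Myt1l was not tested.

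The other marker lists overlapped between the ages. Beta cell markers, led by Slc2a2, had ACS at 6 of 8 genes, all but Mafa and G6pc2, with 11 of 80 (13.8%) Up and 11 (13.8%) Down. They summed to 941.3, 820.6 and 849.9 CPM in Adult and 1062.2, 785.3 and 773.7 CPM in P10. The means were 870.6 ± 63.0 and 873.7 ± 163.3 CPM (SD, n = 3 each). Adult replicate 4 and P10 replicate 1 had the highest values of their groups, as at the start of St18. The beta list shares Pdx1, Nkx6-1 and Mafa with the endocrine factors. Delta cell markers had 1 of 10 ACS Up and 3 (30%) Down, with a ratio of 1.02. Neural and Schwann cell markers, led by Elavl4, had 4 of 42 ACS (9.52%) Up and 4 (9.52%) Down with a ratio of 1.06. Mesenchymal markers had 1 of 25 ACS (4%) Up and 3 (12%) Down with a ratio of 0.937, and immune markers 0 of 8 Up and 1 Down (12.5%) with a ratio of 0.931.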

How the data were processed

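ATAC-seq libraries of 3 Adult and 3 P10 islet samples were used. Per the submitters' processing notes and the methods of the study, the authors checked reads with FastQC 0.11.2, aligned them to Rn5 with BWA 0.7.13, filtered out poorly mapped and mitochondrial reads with SAMtools 1.3, called peaks per age with MACS2 2.1.1 after pooling its samples, merged both peak sets and counted Tn5 integrations with pyDNase. A site thus had to be detected in the pooled reads of at least 1 age. The deposited values are raw counts per ACS and library. The file also holds 5 columns of the authors' own comparison (log2 fold change, mean level, F statistic, p-value and false discovery rate), which were not used.

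The 101941 listed entries hold 101603 distinct ACS, each entered once, and 6846 without a gene symbol stayed in the test of ACS but in no sum per gene. In the deposited annotation, TSS denotes ACS within 1 kb of a gene start, PROXIMAL those farther but under 10 kb and DISTAL nearly all others. It gives upstream, inside and downstream positions, while exons and introns were not analysed here. Counts were tested with edgeR 4.0.16 (TMM scaling, quasi-likelihood F test of age, Benjamini-Hochberg adjustment over all ACS, or over 13834 genes for sums) in R 4.3.3, without a filter. SE is the absolute log2 fold change divided by the root of F. The scripts were tested on simulated data. Between libraries of an age, r of log2 CPM over all ACS was 0.940 to 0.966. The p-values set the difference between the ages against the spread between these libraries, estimated with information shared over all ACS or genes. As the P10 libraries were pools, their spread is not that between single pups. The median count per ACS was 36 to 96 in the 6 libraries.

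Per gene, the ACS at the start, all called ACS (if over 12, the 6 with the smallest p in each direction) and the 2 not called with most integrations per kb were named, and per list and direction the 2 called ACS with the smallest p. The members and lists were chosen with earlier results of these data known. Alternatives were RLE factors, column sums, cyclic loess offsets, limma voom (limma 3.58.1), DESeq2 1.42.0, 2 filters on counts, an adjusted p under 0.05, every listed entry kept, distal ACS alone for sums, 1 kb by distance for the share at the start, and leaving out each library. Protein sequences and the Rn5 genome were not used here.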

Additional observations from a re-analysis of the deposited data

How the results depend on the processing

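The results were recomputed under 15 alternatives for ACS. Of the fits of the 22 called ACS of the 4 genes, without the stricter limit and without ACS that a filter removed, 250 of 305 gave the same call, 55 gave no call and 0 reversed the direction. An adjusted p limit of 0.05 left 7177 Up and 1945 Down ACS in all, 9 Up and 1 Down in the 4 genes, and 27 Up and 6 Down in the 4 lists, as its construction requires. Column sums gave 10732 Down ACS over the whole table, and the cause was not tested. Adding ACS inside the gene spans, chosen after seeing the data, gave 20 Up and 3 Down for the 4 genes.

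Leaving out a library, which also lowers the number of samples, gave 7973 to 13232 Up and 3285 to 7215 Down ACS in all, 9 to 21 Up and 1 to 4 Down in the 4 genes, and 26 to 45 Up and 13 to 31 Down in the lists. The summed log2 fold changes ranged from −0.13 to 0.0698 for Isl1, from −0.24 to 0.22 for Myt1, from 0.38 to 0.56 for Myt1l (0.31 with loess offsets) and from 0.081 to 0.45 for St18. Isl1 reached −0.16 and St18 0.07 with loess offsets, and Myt1 −0.27 with distal ACS alone, so that the direction for Isl1 and Myt1 was not determined. The difference in the share at the start (percentage points, Adult minus P10) ranged from −1.02 to 0.77 for Isl1, from −0.23 to 0.61 for Myt1l and from −3.54 to 0.007 for St18.

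Among ACS not called, the log2 fold change without single libraries ranged from −0.13 to 0.049 at the start of Isl1, from −0.0758 to 0.42 at that of St18, from −0.17 to 0.11 at 17423885 of St18 (−0.18 with loess offsets), and at Myt1 from −0.62 to 0.0792 at 180981688 and from −0.12 to 0.40 at 180988988. The last was −0.0077 with column sums and −0.0432 with loess offsets. No paired analysis was possible because the replicate numbers of the ages are not shared. The depth limits the sites with few counts, since 29 of the 83 ACS had a mean under 50.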
